A study of Mus musculus with 13 samples.

Results

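The genes described are 8 markers of endothelium (Cldn5, Cdh5, Pecam1, Vwf, Flt1, Kdr, Tek and Slc2a1) and 2 markers of pericytes (Pdgfrb and Rgs5), 10 of the 48709 mouse gene identifiers counted. They were chosen by symbol, and each symbol matched 1 identifier in GENCODE M21. The libraries are RNA-seq of lumbar spinal motoneurons from SOD1-G93A mice, which carry a mutant human SOD1 transgene and model amyotrophic lateral sclerosis. In the AAV-miR SOD1 group (n = 4 libraries) an adeno-associated virus that makes an artificial microRNA against human SOD1 in astrocytes was given into the cerebral ventricles at postnatal day 2. The AAV-miR ctrl group (n = 5) received the control vector by the same route, and the non-injected group (n = 4) was made of littermates without virus. All 3 groups carry SOD1-G93A and were killed at 65 days, so the design holds no mouse without the transgene. From each mouse 500 cresyl violet-stained motoneurons were cut from frozen sections by laser and pooled, and the cord was frozen inside its vertebrae.

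Capillary endothelial cells of the spinal cord are joined by tight junctions and wrapped by pericytes, and together with astrocyte endfeet they form the blood-spinal cord barrier. Vascular endothelial growth factor (VEGF) acts through the receptors encoded by Kdr and Flt1, angiopoietins act through the receptor of Tek, and platelet-derived growth factor B from endothelium recruits pericytes through the receptor of Pdgfrb. Motoneurons lie in a dense capillary bed, so a laser cut around a cell body can take vessel RNA with it. In pooled captures like these, fewer cells of a type and less RNA per cell cannot be told apart.

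Across libraries the level of Flt1 had its closest relations to those of Tek and Cldn5, the 2 highest correlations among the 45 pairs of members, and the proximal promoters of these 3 genes are shown for that reason. The sequences are RefSeq's, on build GRCm38.p6, and hold the 250 bases before the annotated start. They are written 5′ to 3′ on the gene's strand, in lower case with motif letters in capitals. Flt1 is at chr5:147726012-147726261 on the minus strand, Tek at chr4:94739039-94739288 on the plus strand and Cldn5 at chr16:18776597-18776846 on the plus strand.
Flt1: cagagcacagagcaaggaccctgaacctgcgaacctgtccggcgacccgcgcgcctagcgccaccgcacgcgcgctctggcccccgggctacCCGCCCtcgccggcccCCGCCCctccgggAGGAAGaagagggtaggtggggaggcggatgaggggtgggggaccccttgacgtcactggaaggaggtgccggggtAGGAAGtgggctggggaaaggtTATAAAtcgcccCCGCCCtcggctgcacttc
Tek: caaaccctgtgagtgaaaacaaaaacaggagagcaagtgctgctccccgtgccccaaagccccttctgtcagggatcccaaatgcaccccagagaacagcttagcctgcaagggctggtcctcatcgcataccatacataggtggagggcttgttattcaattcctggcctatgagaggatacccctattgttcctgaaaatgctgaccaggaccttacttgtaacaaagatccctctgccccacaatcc
Cldn5: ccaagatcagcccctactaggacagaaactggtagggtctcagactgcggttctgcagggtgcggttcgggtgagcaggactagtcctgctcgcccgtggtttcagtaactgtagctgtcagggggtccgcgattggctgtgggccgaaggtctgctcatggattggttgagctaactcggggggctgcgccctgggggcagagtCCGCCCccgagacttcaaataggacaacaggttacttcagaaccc
The Flt1 window had 70.4% G and C, the Cldn5 window 59.6% and the Tek window 51.2%, beside a median of 52.4% over 32851 RefSeq promoters of the same length. RefSeq windows were matched for 6 members, these 3 with Kdr, Rgs5 and Slc2a1, and 7 motifs were searched on both strands. The Sp1 motif GGGCGG (read as CCGCCC on the other strand) was in 4 of the 6, namely Slc2a1, Kdr, Flt1 and Cldn5, and in 32.7% of all promoters. Of the ETS-family motifs, AGGAAG was in Flt1 and in 29.5% of all promoters, and CGGAAG was in none of the 6 and in 13.6% of all. TATAAA was in Flt1 and in 12.4% of all promoters, and ACGTG, the core of the hypoxia-inducible factor (HIF) motif, was in Slc2a1 and in 16.6%. Of the GATA-family motifs, AGATAA was in Rgs5 and in 9.99% of all promoters, and TGATAA was in none of the 6 and in 7.94%. None of the 7 motifs was in the Tek window. Of the motifs searched, none was in all 3 printed windows.

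Libraries held 13897189 to 37414222 gene counts, and 3 counts in a library correspond to 0.0802 to 0.216 CPM (counts-per-million, gene counts scaled to the library total). Those numbered 5 or 6 were deeper than the rest, and none of them belongs to the AAV-miR SOD1 group. The column headers of 2 tables name another group than their labels: replicate 3 of the control vector group and of the non-injected group. Labels were followed, and the differences of Slc2a1 and Kdr are also given without these libraries. All 7 motoneuron markers were detected in every library, with a summed level of 1686 to 7332 CPM, led by neurofilament light chain Nefl. Marrow and blood RNA was also abundant: erythroid markers summed to 3641 to 51945 CPM, led by Hbb-bs, and neutrophil granule markers to 10157 to 80758 CPM, led by S100a9.

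Every vessel gene was counted in all 13 libraries, the lowest value being 112 counts of Tek, and all 10 passed the filter on low counts. Their summed level was 356 to 422 CPM in AAV-miR SOD1, 245 to 419 in AAV-miR ctrl and 222 to 387 in non-injected libraries. Medians were 363, 338 and 318 CPM, and the 3 ranges overlapped. The 8 endothelial genes summed to medians of 237, 192 and 201 CPM and the 2 pericyte genes to medians of 151, 125 and 117 CPM, in the same order of groups. Rgs5 made up the largest median share of the 10 genes' sum (25.3%), and Vwf had the widest range of shares, from 2.46% to 34.4%. The sum of these 10 genes was therefore below that of the motoneuron markers in each library, and it varied far less between libraries than the blood markers did. Sums over different gene lists do not measure the share of each cell type. Other pericyte and smooth muscle genes, led by Des (352 to 3286 CPM), summed to more than the motoneuron markers in AAV-miR SOD1 replicate 3 (3485 against 1686 CPM) and AAV-miR ctrl replicate 4 (3512 against 3137 CPM). In the other libraries they summed to less.

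**Figure D1:**
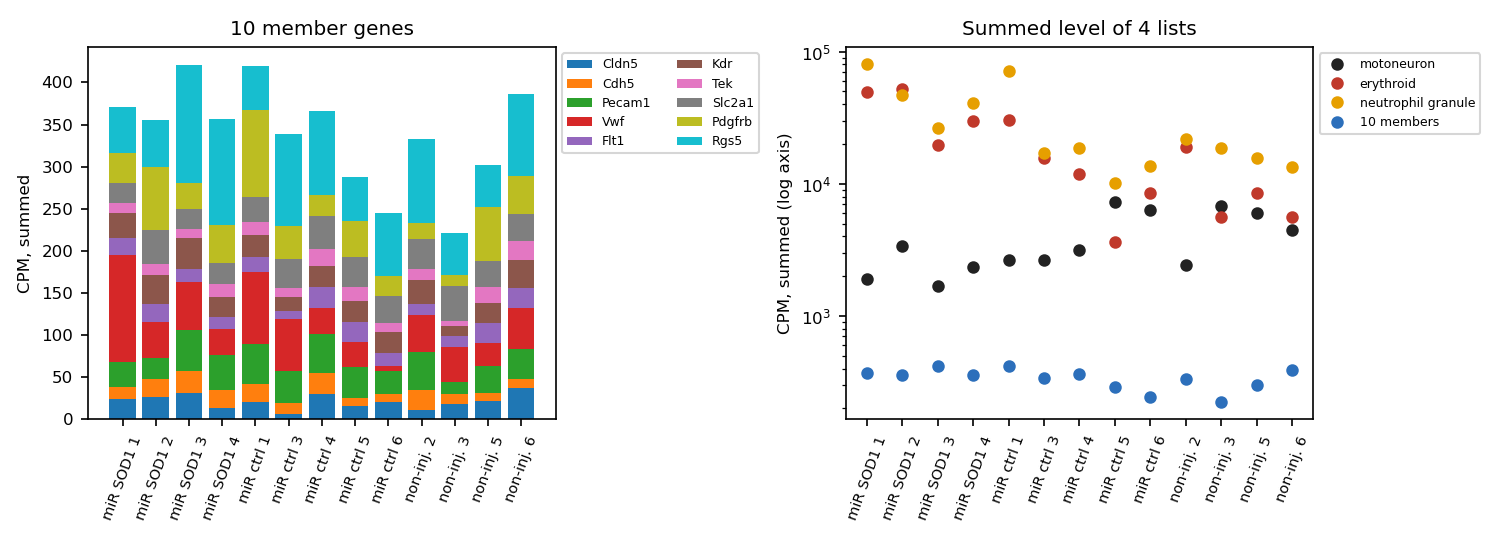
Left: CPM of the 10 vessel genes stacked for each library, on a linear axis from 0. Right: CPM summed over the motoneuron, erythroid and neutrophil granule markers and over the 10 vessel genes, on a log axis. The vessel genes sum to 222 to 422 CPM, while erythroid markers run from 3641 to 51945 CPM.

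Levels of different genes were compared per length (RPKM, CPM divided by the exon length in kilobases). Rgs5, a regulator of G protein signalling that marks pericytes and vascular smooth muscle, had the highest mean, 18 ± 7.06 RPKM (SD, n = 13). Cldn5, the main claudin of barrier tight junctions, had 15.1 ± 6.07, and Slc2a1, the GLUT1 glucose transporter, had 9.28 ± 1.74. Pdgfrb followed at 7.87 ± 4.54, Pecam1 at 5.78 ± 1.66 and Cdh5 at 3.99 ± 1.45 RPKM. Vwf (3.02 ± 1.90), Tek (3.01 ± 0.931) and Kdr (2.90 ± 0.751) had nearly equal means, and Flt1 was last at 1.36 ± 0.384 RPKM. Among neighbours in this order the step from Kdr to Flt1 was the one with the same sign in 13 of 13 libraries. Cldn5 exceeded Slc2a1 in 11 of 13 and Pecam1 exceeded Cdh5 in 11 of 13, whereas Rgs5 exceeded Cldn5 in 7 of 13 and Tek exceeded Kdr in 8 of 13. Kdr over Flt1 per length ran from 1.45 to 3.31 with a median of 2.29. Per length, the main signalling receptor of VEGF was thus above the high-affinity receptor Flt1 in each mouse. That order depends on the exon lengths used, 9030 bases for Kdr and 13504 for Flt1. In CPM, Flt1 was slightly above Kdr in non-injected replicates 3 (12.3 against 12) and 5 (24.6 against 23.9), and Kdr was above Flt1 in the other libraries.

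No vessel gene passed the threshold in any comparison. With edgeR's quasi-likelihood test and Benjamini-Hochberg adjustment over 17403 genes, 0 genes of the transcriptome (0% of those tested) had an adjusted p under 0.05 in AAV-miR SOD1 against AAV-miR ctrl, against non-injected or against both control groups, or between the 2 control groups. At an unadjusted p under 0.05, the members counted 0, 0 and 1 of 10 in the first 3 of these, beside 14.5%, 20.9% and 22.2% of all genes. Between the control groups the count was 0 of 10, beside 3.61%. DESeq2 called 180, 1025 and 1521 genes of the transcriptome in the first 3 and 2 between the controls, and limma-voom called 1461 in AAV-miR SOD1 against both control groups, with none of the 10 vessel genes among them. Levels of the groups overlapped for 10 of 10 members in every comparison. The share of all genes whose groups did not overlap was 3.73% for AAV-miR SOD1 against AAV-miR ctrl, 11.7% against non-injected, 1.82% against both and 0.816% between the controls. Fitted changes above 0 counted 5, 7 and 6 of 10 against AAV-miR ctrl, non-injected and both, beside 46.3%, 44.9% and 45.8% of all genes, and 5 of 10 between the controls beside 48%. The members' median log2 fold change against both control groups was 0.17, and that of all genes was -0.06.

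**Figure D2:**
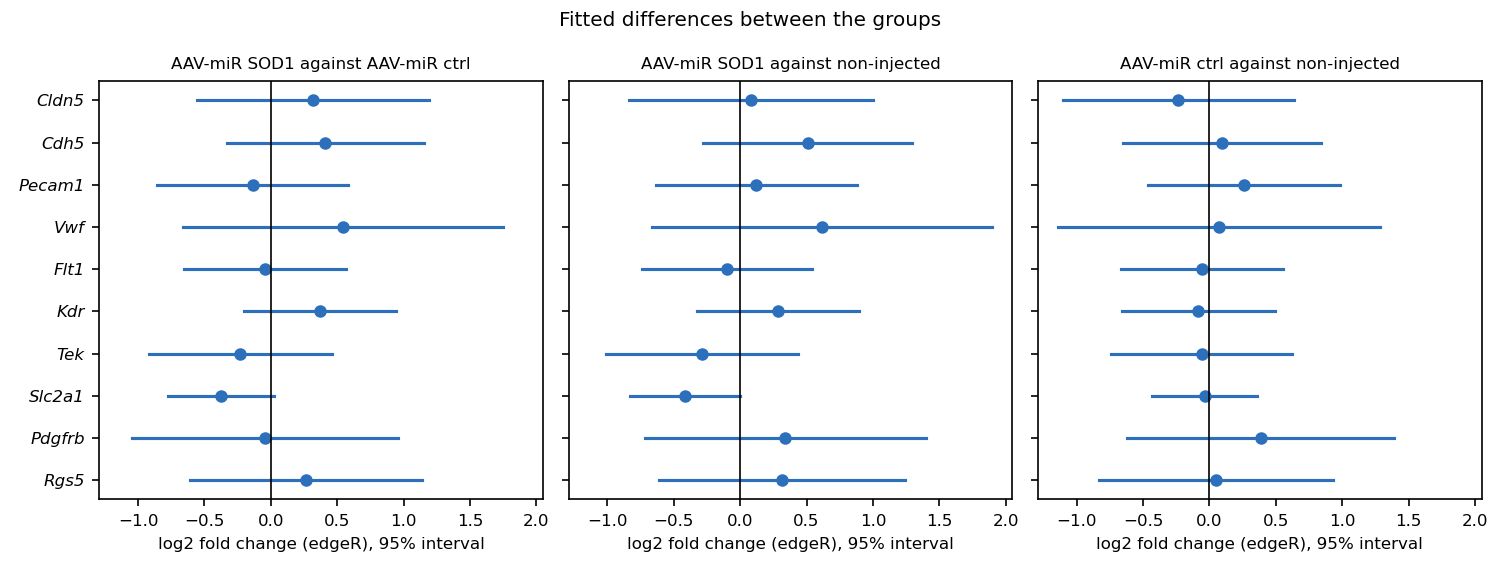
Log2 fold changes of the 10 vessel genes from edgeR (points) with 95% intervals (lines), for AAV-miR SOD1 against the control vector (left) and against no injection (middle), and for the control vector against no injection (right); values above 0 are higher in the first group named. The intervals of all 10 genes include 0 in these 3 panels, whereas against both control groups, not drawn, that of Slc2a1 runs from -0.76 to -0.03.

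The barrier gene Slc2a1 came nearest to the threshold. The gene lies at chr4:119108711-119137983 (GRCm38, GENCODE M21). Its level was 23.9, 40.3, 22.7 and 24.3 CPM in AAV-miR SOD1 replicates 1 to 4. It was 29.7, 34.8, 38.6, 35.7 and 32.6 CPM in AAV-miR ctrl replicates 1, 3, 4, 5 and 6, and 36.0, 41.1, 31.1 and 32.1 CPM in non-injected replicates 2, 3, 5 and 6. AAV-miR SOD1 replicates 1, 3 and 4 lay below all 9 control libraries, and replicate 2 lay within the controls' range. With the TMM scaling of the test, replicate 2 was 34.3 CPM, the other AAV-miR SOD1 libraries 22.9 to 25.2 and the controls 27.7 to 41. Against both control groups the log2 fold change was -0.40 ± 0.17 (SE), with a 95% interval of -0.76 to -0.03, an edgeR p of 0.0339 and an adjusted p of 0.187. Without the 2 libraries whose headers disagree, it was -0.28 at an edgeR p of 0.141 and an adjusted p of 0.445. Antisense genes Gm12867 and Gm12868 lie across Slc2a1. The annotation and strand setting of the counting are not given in the sources used here, so how reads over shared bases were counted is not known. Slc2a1 is also made by astrocytes and neurons. Over the libraries its Pearson's r with the mean of the 8 endothelial members, itself included, was -0.26, and those of the other endothelial members were 0.52 to 0.76. Each of these genes is part of that mean, which raises its r. The median r to the other members taken singly was -0.20 for Slc2a1. Among the other endothelial members it ran from 0.02 for Vwf and 0.07 for Cldn5 to 0.43 for Kdr. With the mean of 18 other endothelial identity genes the r of Slc2a1 was -0.38. Across libraries it had its largest correlation with the neutrophil granule markers (Pearson's r = -0.70, Spearman's rho = -0.58, n = 13; permutation p = 0.00779 and 0.042, adjusted 0.157 and 0.284 over 130 relations). That r was -0.53 without the 2 libraries farthest on the marker axis, -0.79 in the 9 libraries numbered 1 to 4 and -0.47 with group means removed.

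Junction and adhesion genes showed no difference beyond the spread between mice. Cdh5 encodes VE-cadherin, the adherens junction cadherin of endothelium, and was 15.1, 21.4, 25.9 and 21.5 CPM in AAV-miR SOD1. It was 20.5, 12.8, 24.0, 9.83 and 10.3 CPM in AAV-miR ctrl and 23.5, 11.9, 10 and 11.3 CPM in non-injected libraries, in the same order of replicates. Both control groups held libraries within the range of AAV-miR SOD1, and the difference from both was 0.46 ± 0.31 with an edgeR adjusted p of 0.405. The antisense gene Gm29682 lies across Cdh5, with the same limit on its counts. Cldn5 was 23.7, 27.0, 31.4 and 13.8 CPM in AAV-miR SOD1, 21.1, 6.58, 30.5, 15.8 and 20.2 in AAV-miR ctrl, and 10.8, 17.8, 21.7 and 36.6 in non-injected libraries. By label, the highest Cldn5 value was thus in a non-injected mouse and the lowest in an AAV-miR ctrl mouse. The lowest was in replicate 3, whose header names another group. Pecam1 (CD31, an adhesion molecule that platelets and leukocytes also carry) had group means of 35.8 ± 11.5 (SD, n = 4), 39.2 ± 8.24 (n = 5) and 32.2 ± 13.1 CPM (n = 4) in AAV-miR SOD1, AAV-miR ctrl and non-injected libraries. Its interval against both control groups, -0.65 to 0.64, was centred close to 0.

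**Figure D3:**
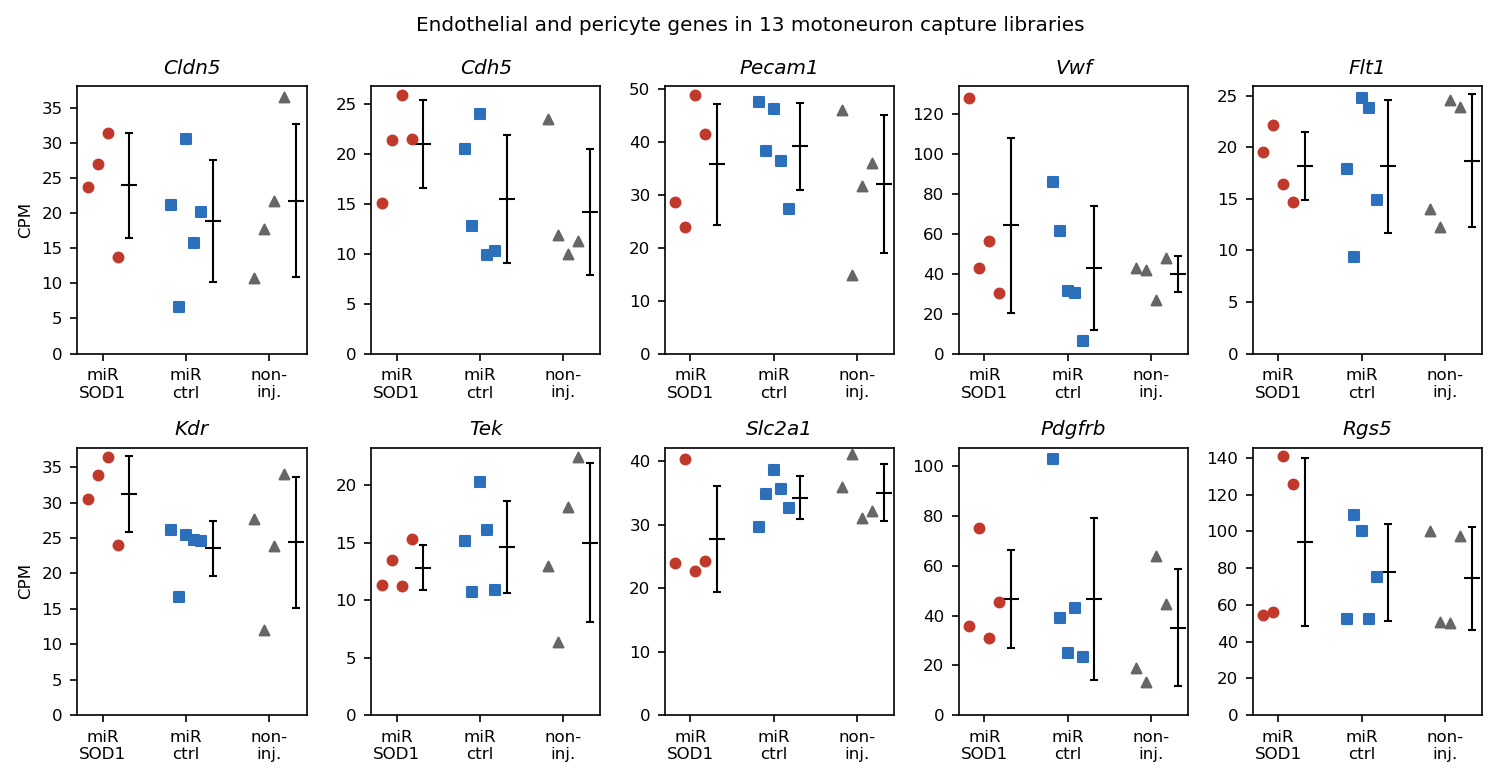
CPM of each vessel gene by library (points) in AAV-miR SOD1, AAV-miR ctrl (miR ctrl) and non-injected mice, each axis starting at 0; bars are means ± SD over n = 4, 5 and 4 libraries. Groups overlap in all 10 panels, and Slc2a1 shows 3 of 4 AAV-miR SOD1 libraries under the controls.

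The angiogenic receptors showed no difference beyond the spread either. Kdr was 30.5, 33.9, 36.4 and 24.0 CPM in AAV-miR SOD1, 26.2, 16.7, 25.5, 24.7 and 24.6 in AAV-miR ctrl, and 27.7, 12, 23.9 and 34.0 in non-injected libraries. The 2 lowest Kdr values came from the libraries with disagreeing headers, and the difference from both control groups was 0.33 ± 0.24 with an interval of -0.18 to 0.84. Without those 2 libraries it was 0.24 ± 0.18, with an edgeR adjusted p of 0.541. Flt1 was 19.5, 22.2, 16.4 and 14.7 CPM in AAV-miR SOD1, 17.9, 9.32, 24.8, 23.8 and 14.9 in AAV-miR ctrl, and 14.0, 12.3, 24.6 and 23.9 in non-injected libraries. AAV-miR SOD1 libraries sat in the middle of the Flt1 range, and the controls held both its ends. Tek, the angiopoietin receptor TIE2, was 11.3, 13.5, 11.2 and 15.3 CPM in AAV-miR SOD1, 15.2, 10.7, 20.3, 16.1 and 10.9 in AAV-miR ctrl, and 13, 6.39, 18.1 and 22.5 in non-injected libraries. By label, the lowest and the highest Tek level were both in the non-injected group, but the lowest was in replicate 3, whose header names another group. Intervals against both control groups were -0.62 to 0.48 for Flt1 and -0.88 to 0.36 for Tek.

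Pericyte genes varied from mouse to mouse without following the groups or each other. Pdgfrb was 35.8, 75.0, 30.9 and 45.3 CPM in AAV-miR SOD1, 103, 39.1, 24.8, 43.2 and 23.3 in AAV-miR ctrl, and 19.1, 13.1, 64.0 and 44.5 in non-injected libraries. Rgs5 was 54.3, 55.9, 141 and 126 CPM in AAV-miR SOD1, 52.2, 109, 100, 52.2 and 75.4 in AAV-miR ctrl, and 100, 50.5, 49.9 and 97.7 in non-injected libraries. Each group held libraries near 50 CPM of Rgs5 and libraries near 100 or above, and those with the most Pdgfrb were not those with the most Rgs5. Pearson's r between their log2 CPM values was -0.22 (rho = -0.38, n = 13, as a description), and Rgs5 over Pdgfrb per length ran from 0.613 to 6.33 with a median of 3.35. Their differences from both control groups were 0.15 ± 0.42 for Pdgfrb and 0.29 ± 0.36 for Rgs5.

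Vwf, the platelet-binding glycoprotein that endothelium and megakaryocytes both make, varied most. The gene lies at chr6:125546774-125686679. Its level was 128, 42.7, 56.3 and 30.2 CPM in AAV-miR SOD1, 85.9, 61.5, 31.1, 30.1 and 6.03 in AAV-miR ctrl, and 43.0, 41.7, 26.8 and 47.8 in non-injected libraries. The highest library had 21.1 times the lowest, against 1.81 times for Slc2a1. The SD of log2 CPM over the 13 libraries was 1.04 for Vwf and 0.28 for Slc2a1, the ends of the members' range. The members' median SD was 0.548, that of all genes tested 0.579 and that of the 6346 genes within the members' range of mean levels 0.417. Against both control groups Vwf was 0.58 ± 0.50, with an interval of -0.48 to 1.64.

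Pairs of single vessel genes were mostly weakly correlated, while the mean of the 8 endothelial members followed other endothelial genes, though not these alone. Over 13 libraries the 45 pairs of members had a median Pearson's r of 0.13 between log2 CPM values, with 27 pairs above 0 and 10 (22.2%) above 0.5. Over all pairs of tested genes the median was -0.006, and 11.7% were above 0.5. These values describe libraries that share a protocol and whose CPM are shares of 1 total, so more RNA of one kind lowers the share of all others. With group means removed the members' median was 0.21, and in the 9 libraries numbered 1 to 4 it was 0.15. The highest pairs were Flt1 with Tek (r = 0.72, rho = 0.64; 0.76 without the 2 libraries farthest in Flt1) and Cldn5 with Flt1 (r = 0.72, rho = 0.70), whose r was 0.43 without the 2 libraries farthest in Cldn5. Pecam1 with Rgs5 followed (r = 0.69, rho = 0.66; 0.66 without the 2 farthest). Kdr had the highest median r to the other members (0.43) and Slc2a1 the lowest (-0.20). The mean centred log2 CPM of the 8 endothelial members had r = 0.87 and rho = 0.66 with that of the 18 other endothelial identity genes over 13 libraries, given as a description. That r was 0.86 with group means removed, 0.89 in the libraries numbered 1 to 4 and 0.67 without the 2 libraries farthest on the list axis. Of the 18 genes 17 had r above 0 with the members' mean and 8 had r above 0.5, beside 54.1% and 7.84% of all tested genes. Of the 13 other pericyte and smooth muscle genes, 13 were above 0 and 6 above 0.5. The median r was 0.46 for the 18 endothelial genes, 0.45 for those 13 and 0.49 for the 5 sinusoidal endothelium markers. It was -0.57 for the 7 motoneuron markers, and the remaining lists had medians from 0.16 (oligodendrocyte) to 0.39 (megakaryocyte and platelet).

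Members differed in the gene list that each followed most closely, among 13 lists of other vessel genes and other cell types. Tek (r = 0.77, rho = 0.81; permutation p = 0.00208 and 0.00144, adjusted 0.0926 and 0.0936 over 130 relations, n = 13), Kdr, Flt1 and Pecam1 had their largest absolute r with the 18 other endothelial identity genes. For Tek it was 0.61 without the 2 libraries farthest on the list axis and 0.72 in the 9 libraries numbered 1 to 4. Vwf followed the megakaryocyte and platelet markers, with r = 0.79 and rho = 0.90 (permutation p = 0.00229 and 7e-05, adjusted 0.0926 and 0.0091 over 130 relations, n = 13). Its r was 0.89 without the 2 farthest libraries and 0.89 in those numbered 1 to 4. Those markers summed to 26.6 to 3190 CPM, led by Ppbp, with 364 to 3190 in AAV-miR SOD1, 26.6 to 1416 in AAV-miR ctrl and 238 to 993 in non-injected libraries. The part of megakaryocyte RNA in the Vwf values was not tested.

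Pdgfrb followed the fibroblast markers (r = 0.75, rho = 0.64; permutation p = 0.00285 and 0.0206, adjusted 0.0926 and 0.268 over 130 relations, n = 13), with 0.58 without the 2 farthest libraries and 0.87 in those numbered 1 to 4. Fibroblasts of the meninges and perivascular space carry Pdgfrb. The markers listed for them summed to 4002 to 26015 CPM, led by Col1a2 at 1527 to 13100 CPM. Which cells these transcripts came from was not tested, in cords frozen inside their vertebrae. Cdh5 ran against the motoneuron markers (r = -0.78, rho = -0.76; permutation p = 0.00283 and 0.00329, adjusted 0.0926 and 0.143 over 130 relations, n = 13). That r was -0.74 without the 2 farthest libraries and -0.54 in those numbered 1 to 4. The 4 libraries numbered 5 or 6 and non-injected replicate 3 stood apart at the high end of the motoneuron axis, so the pooled r rests in part on the gap between them and the rest. Rgs5 had its largest r with the 13 other pericyte and smooth muscle genes (r = 0.73, rho = 0.50, permutation p = 0.00829 and 0.0853, adjusted 0.157 and 0.387 over 130 relations, n = 13). That r was 0.70 without the 2 farthest libraries and 0.79 in those numbered 1 to 4. Like the motoneuron list, this list set the libraries in 2 separate clusters, so the pooled r rests in part on the gap between them. Cldn5 had its largest r with the VEGF, angiopoietin and PDGF list. By Pearson's r, 0 of the 130 relations had an adjusted p under 0.05 and 24 an unadjusted p under 0.05. Libraries numbered 5 or 6 are 4 in all, too few for an r of their own.

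**Figure D4:**
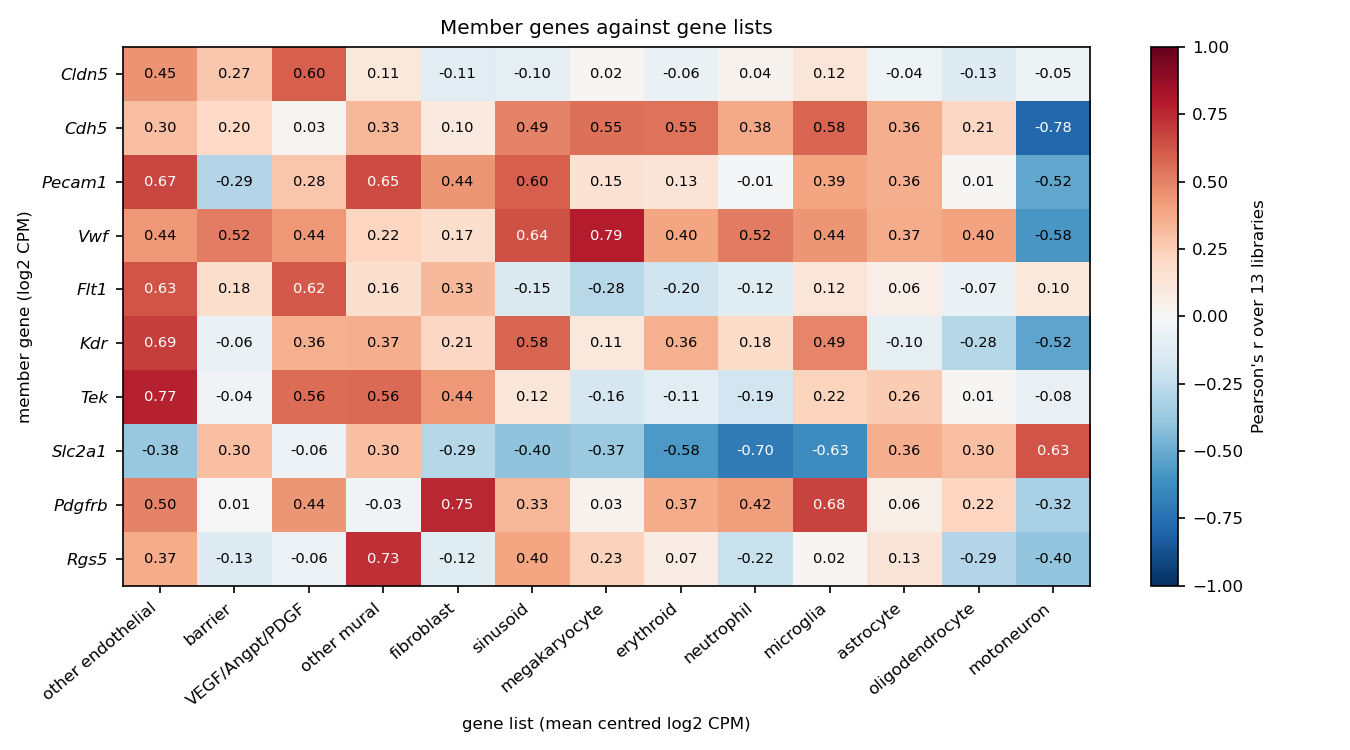
Pearson's r over 13 libraries between log2 CPM of each vessel gene (rows) and the mean centred log2 CPM of each gene list (columns); red is positive and blue negative. The largest values are Vwf with megakaryocyte markers (0.79), Cdh5 with motoneuron markers (-0.78) and Tek with other endothelial genes (0.77).

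**Figure D5:**
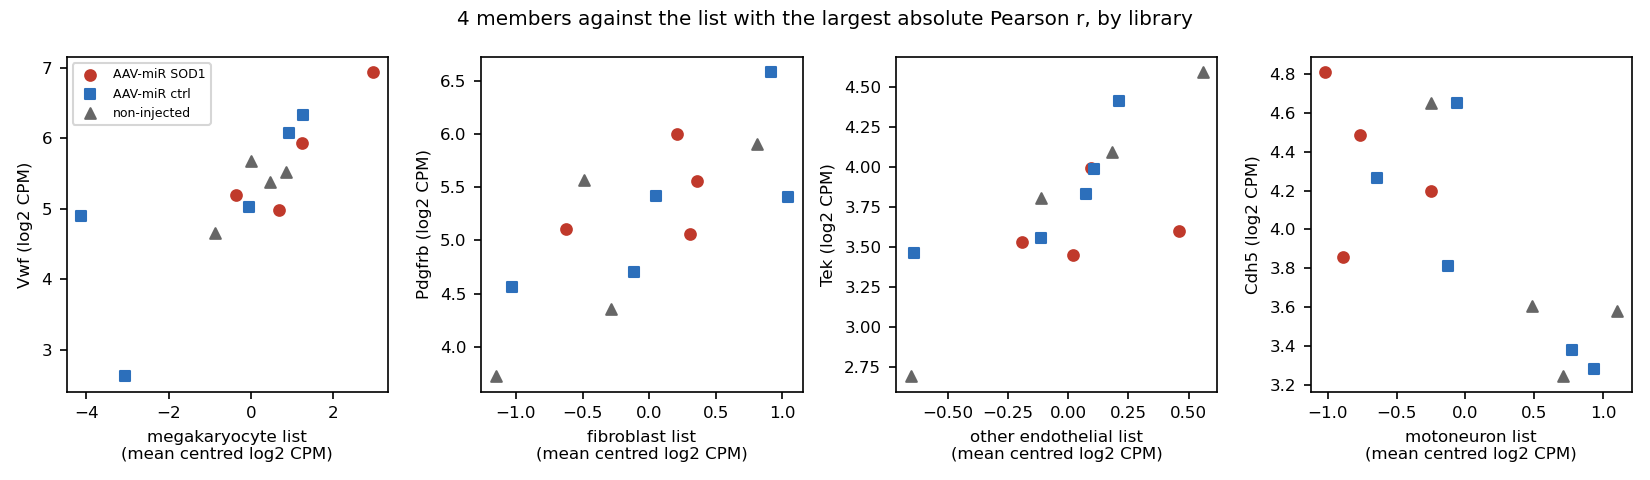
Log2 CPM of Vwf, Pdgfrb, Tek and Cdh5 in each library against the mean centred log2 CPM of a gene list, coloured and shaped by group. Vwf rises along the megakaryocyte list and Cdh5 declines along the motoneuron list, where no AAV-miR SOD1 library lies at the high end of the motoneuron list.

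The 10 non-member genes with the highest r to the mean of the 8 endothelial members were on none of the lists, although 8 of the 18 other endothelial genes exceeded 0.5 with it, the highest being Adgrl4 (r = 0.82), an adhesion receptor of endothelium, named after its value was seen. The first of the 10 were B430212C06Rik, a noncoding transcript (r = 0.91), and Galm, galactose mutarotase (r = 0.90), over n = 13 libraries and without a test. Gpx3, Chp2, Acss3, Mgll, F2, Igkj5, Rhoj and Acsm3 completed them, at r of 0.84 to 0.85. Levels were 334 to 1266 CPM for Gpx3, but 0 to 1.47 for F2 and 0.0337 to 2.73 for B430212C06Rik, where few counts stand behind each value.

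Other genes of the vessel wall and its signalling also had no adjusted p under 0.05 in AAV-miR SOD1 against both control groups, where 10.2% of all genes were higher and 12.1% lower at an unadjusted p under 0.05. Of 18 other endothelial identity genes 1 was higher and 0 lower at that level: Fli1, an ETS factor of endothelium and megakaryocytes, at 0.72 ± 0.31 with an edgeR adjusted p of 0.189. Its level was 41.5 to 72.5 CPM in AAV-miR SOD1, 15.5 to 77.0 in AAV-miR ctrl and 23.8 to 41.2 in non-injected libraries, so the highest value was in a control library. The list's median log2 fold change was 0.10, beside -0.06 for all genes.

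Of 12 barrier transporters and junction genes 11 were tested, with 2 higher and 1 lower. Abcg2, an efflux transporter that erythroid precursors also make, was 55.4 to 81.3 CPM in AAV-miR SOD1, 33.3 to 48.6 in AAV-miR ctrl and 37.6 to 55.9 in non-injected libraries. Its difference was 0.58 ± 0.16 with an edgeR adjusted p of 0.0967, and the overlap was with the non-injected group alone. Slc16a1, the lactate transporter MCT1, was 134 to 220, 93.4 to 133 and 90.1 to 141 CPM in the same order, with a difference of 0.49 ± 0.17. Spock2, a proteoglycan that neurons also make, was 47.1 to 98.5, 84.0 to 173 and 92.1 to 218 CPM, with a difference of -0.91 ± 0.29. The list's median was 0.18.

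Of 13 other pericyte and smooth muscle genes none was higher or lower at that level, and the median was -0.21. The smallest p values belonged to Myh11, smooth muscle myosin (-1.37 ± 0.67, 3.78 to 7.43 CPM in AAV-miR SOD1, 2.84 to 24.1 in AAV-miR ctrl and 6.02 to 33.8 in non-injected libraries), and Acta2, smooth muscle actin (-0.62 ± 0.51). Of 18 ligands and co-receptors of VEGF, angiopoietin and PDGF signalling 1 was higher and 2 were lower, with a median of -0.18. Notch1, which restrains sprouting, was 9.61 to 17.9 CPM in AAV-miR SOD1 and 5.12 to 13.8 in the controls (0.72 ± 0.25). Pgf, a ligand of Flt1, was 14.9 to 33.5 CPM against 21.4 to 64.9 in the controls (-0.83 ± 0.30), and Pdgfd, a ligand of the Pdgfrb receptor, was 21.3 to 31.7 against 20.9 to 59.3 (-0.67 ± 0.25). The edgeR adjusted p of these 3 was 0.126, 0.137 and 0.141.

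Markers of blood and of motoneurons were the lists with most genes at that level. In AAV-miR SOD1 against both control groups, 7 of 7 erythroid markers were higher, 5 of 7 neutrophil granule markers, 3 of 6 microglia markers, 1 of 6 megakaryocyte markers and 1 of 5 sinusoidal endothelium markers were higher, and 0 of these lists' genes were lower. Motoneuron markers were lower in 7 of 7 and astrocyte markers in 1 of 7, and 0 of 6 oligodendrocyte and 0 of 6 fibroblast markers were higher or lower. Of all genes, 10.2% were higher and 12.1% lower at that level, and a count of 1 in lists this short stands near that share. None of these lists' genes had an adjusted p under 0.05. Erythroid markers summed to 19531 to 51945 CPM in AAV-miR SOD1, 3641 to 30314 in AAV-miR ctrl and 5595 to 19077 in non-injected libraries, and motoneuron markers to 1686 to 3386, 2633 to 7332 and 2437 to 6744 CPM. Their part in the values of Slc2a1, Abcg2, Slc16a1, Spock2 and Fli1 was not tested. The 5 markers of sinusoidal endothelium, the vessel lining of marrow, summed to 18.7 to 74.3 CPM, and Clec4g was at 0 in 1 of the 13 libraries. Their median levels ran from 0.519 CPM for Clec4g to 10.2 for Stab1 and 19.9 for Mrc1, beside 13.5 for Tek, the lowest member. Pearson's r of the list with the members ran from -0.40 for Slc2a1 to 0.64 for Vwf (n = 13). The part of marrow vessels in the members' levels was not tested.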

How the data were processed

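RNA from 13 motoneuron captures was reverse transcribed and amplified with a SMARTer low-input kit and made into Nextera XT libraries, per the labels' protocols. The authors deposited raw counts per gene (48709 Ensembl identifiers and 5 summary rows a table), and the submitters' processing notes name cutadapt 1.8, STAR 2.5.2b, HTSeq 0.6.1 and GRCm38. Annotation and strand setting are not given in the sources used here. Reads aligned to several places, 42.3% to 56.8% of the reads in the tables, stayed out of library sizes. GENCODE M21 named 48349 identifiers and gave exon lengths.

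Genes were filtered with filterByExpr (minimum count 10, minimum total 15) and tested in edgeR 4.0.16 (R 4.3.3; TMM scaling, quasi-likelihood F test, Benjamini-Hochberg over 17403 genes, threshold 0.05) on all 13 libraries, each from 1 mouse. Log2 CPM used a prior count of 2, and SEs came from the F statistic. A list's value is the mean of its genes' centred log2 CPM. Relations were tested with 100000 two-sided permutations over all 13 libraries, not within groups. Their p values therefore do not separate co-variation within groups from differences between groups. Alternatives used DESeq2 1.42.0 and limma 3.58.1. On simulated counts edgeR recovered 59% of 4-fold and 93% of 16-fold changes in AAV-miR SOD1 against both control groups. Smaller changes were not simulated. The members and lists were chosen with earlier results of these data known. All members are named. Of each other vessel list the genes with an unadjusted p under 0.05 are named, at most 3, or else the 2 with the smallest p, and of other cell types the highest gene.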

Additional observations from a re-analysis of the deposited data

Results flagged for a closer look

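In 4 of 39 groups examined (10 genes and 3 summed levels in 3 groups), 1 library stood far from the others of its group by Dixon's criterion, where chance gives about 1.95. Slc2a1 was 40.3 CPM in AAV-miR SOD1 replicate 2 and 22.7 to 24.3 in the other AAV-miR SOD1 libraries. Without that library the log2 fold change of Slc2a1 against both control groups was -0.53, with an edgeR adjusted p of 0.184. Pdgfrb was 103 CPM in AAV-miR ctrl replicate 1 and 23.3 to 43.2 in the other AAV-miR ctrl libraries. Cdh5 was 23.5 CPM in non-injected replicate 2 and 10 to 11.9 in the other non-injected libraries. Kdr was 16.7 CPM in AAV-miR ctrl replicate 3, a library whose header disagrees with its label, and 24.6 to 26.2 in the other AAV-miR ctrl libraries. With TMM-scaled CPM, chosen after seeing the data, Pdgfrb and Kdr still met the criterion, while Slc2a1 (34.3 against 22.9 to 25.2) and Cdh5 (25 against 9.39 to 12.1) did not.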

How the results depend on the processing

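No vessel gene had an adjusted p under 0.05 in any of 910 alternative values (23 settings, 13 of them leaving out 1 library); 811 kept their direction and 99 reversed. Leaving out both libraries with disagreeing headers, and the relations with gene lists, were chosen after seeing the data. Transcriptome counts moved more: DESeq2 called 180, 1025, 2 and 1521 genes (AAV-miR SOD1 against the control vector, against no injection, between controls, against both), limma-voom 1461 in the last and no filter 1. Leaving out 1 library gave 0 to 1694 in the last, with 1694 without AAV-miR ctrl replicate 1 and 121 without AAV-miR SOD1 replicate 3; the cause was not tested. On simulated counts of that comparison DESeq2 made 40 false calls of 206 and edgeR 9 of 161. Those counts were drawn independently for each gene, from edgeR's own estimates of the spread. They lack the variation that genes share between real libraries, so they cannot show how many calls in the data are false. Mice were not treated as paired by replicate number. The 8 same-numbered pairs had deviations correlated from -0.19 to 0.24, which cannot show whether such mice were related or processed together. The same-numbered library was the closest of its group for AAV-miR SOD1 replicate 1 with AAV-miR ctrl, and for AAV-miR ctrl replicate 5 with non-injected. In the other pairs another library was closest. With the replicate block, genes at an unadjusted p under 0.05 went from 3870 to 1927 against both control groups, and 0 were called.

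Reversed log2 fold changes were as follows. AAV-miR SOD1 against AAV-miR ctrl: Pdgfrb 0.32 with limma-voom, Flt1 0.21 and Pdgfrb 0.22 with the replicate block, Flt1 0.021 in libraries 1 to 4, Pecam1 0.075 and Pdgfrb 0.15 with the exchange. Leaving out 1 library gave ranges of -0.0074 to 0.90 for Vwf, -0.28 to 0.41 for Pdgfrb, -0.33 to 0.050 for Pecam1, -0.14 to 0.11 for Flt1 and -0.0011 to 0.51 for Rgs5. Against non-injected: Cldn5 -0.13 with limma-voom, Flt1 0.086, Pecam1 -0.055 and Vwf -0.29 with the replicate block, Flt1 0.40 and Tek 0.32 in libraries 1 to 4, and Pecam1 -0.14 with the exchange and -0.052 without those libraries. The ranges were -0.074 to 0.50 for Cldn5, -0.12 to 0.46 for Pecam1, -0.26 to 0.074 for Flt1 and -0.55 to 0.011 for Tek. Between controls: Tek 0.0044 with upper quartile scaling, Vwf -0.41, Slc2a1 0.067 and Pdgfrb -0.012 with limma-voom, and Kdr 0.047, Vwf -0.59, Slc2a1 0.067 and Rgs5 -0.019 with the replicate block. Libraries 1 to 4 gave Cldn5 0.42, Flt1 0.38, Tek 0.63 and Kdr 0.16. The exchange gave Cldn5 0.10, Flt1 0.016, Pecam1 -0.22, Vwf -0.32, Slc2a1 0.018, Pdgfrb -0.086 and Rgs5 -0.51, and leaving those libraries out gave Vwf -0.11, Slc2a1 0.019 and Rgs5 -0.28. The ranges were -0.28 to 0.38 for Vwf, -0.11 to 0.036 for Slc2a1, -0.068 to 0.81 for Pdgfrb, -0.22 to 0.12 for Flt1, -0.31 to 0.24 for Tek, -0.31 to 0.15 for Kdr, -0.13 to 0.27 for Rgs5, -0.14 to 0.51 for Cdh5 and -0.50 to 0.19 for Cldn5. Against both control groups: Pecam1 0.028 with RLE scaling and with DESeq2, 0.040 with upper quartile scaling and 0.00055 with no filter, Flt1 0.15 with the replicate block, and Flt1 0.21 and Tek 0.0062 in libraries 1 to 4. The ranges were -0.19 to 0.19 for Pecam1, -0.070 to 0.38 for Pdgfrb and -0.16 to 0.014 for Flt1.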
